A study of Mus musculus with 20 samples.

Results

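The response measured here is that of the testis of AKR/N mice, an inbred laboratory strain, 24 h after heat. It was read from 4 of the 20 arrays of the series, chosen by their sample titles: 2 arrays of AKR/N testis taken 24 h after heating at 43 °C for 15 min and 2 arrays of unheated AKR/N testis. The other arrays were AKR/N testis at 8, 10 and 12 h and C57BL/6 testis, another inbred strain, as unheated controls and at the same 4 times, with 2 arrays in each of 10 groups. All mice were 8 weeks old, and no allele or agent other than strain and heat is named in the labels. Total RNA of the whole organ was hybridised to an Affymetrix Mouse Genome 430 2.0 chip, on which each transcript is read by sets of short probes. Whether the pair of arrays in a group stands for 2 animals is not said, so a p-value here reflects the spread between arrays, and that spread may be technical. The controls carry no sampling time, so an effect of heat and an effect of the hour of sampling cannot be told apart.

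The mammalian testis works below core body temperature, and its meiotic and early postmeiotic germ cells are the cells known to be most easily damaged by heat. Heated cells activate heat shock factors, which raise chaperones that hold or refold unfolded proteins, and antioxidant and growth arrest genes often rise with them. Germ cells that die are removed by Sertoli cells, the somatic nurse cells of the seminiferous tubule, whose junctions form the blood-testis barrier. Leydig cells between the tubules make testosterone. In RNA of a whole organ, fewer cells of a type and less RNA per cell cannot be told apart.

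Signals are the deposited intensities, and changes are differences of the means of log2(signal + 16), with the standard error (SE) of a limma fit over all 20 arrays. The threshold for a call was an adjusted p of 0.05. Across genes, which do not count as replicates, the pair of control arrays had r = 0.981 and the pair of 24 h arrays r = 0.985. Median signals of the 4 arrays lay between 28.2 and 31.1. For beta-actin the ratio of 3′ to 5′ probe signal, which rises as RNA degrades, was 2.92 and 2.39 in the controls, 2.62 and 2.74 at 12 h, and 2.14 and 2.17 at 24 h, and that of Gapdh was 1.32 and 1.19 in the controls against 1.05 and 0.993 at 24 h. The ratios were thus lower at 24 h than in the controls, and with the beta-actin ratio as a covariate 1955 genes were called instead of 3686. Beyond that fit, their part in the results was not tested. The arrays carried a testis profile: the summed signal of 29 genes of elongating spermatids lay between 133074 and 140789. The markers of neighbouring or circulating cells summed to 175 to 287 over 6 epididymis genes, 409 to 594 over 7 adipose genes, 50 to 88 over 2 red blood cell genes and 325 to 462 over 10 T and B cell genes, and none of these genes was called.

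At 24 h, 3686 of 15762 genes (23.4%) differed from control. Of these, 1932 (12.3%) were higher and 1754 (11.1%) lower, and 330 (2.09%) and 300 (1.90%) were at least 2-fold higher or lower. The median change of all genes was −0.01. The count was 1073 without 24 h replicate 2, 2116 without control replicate 1 and 2281 without control replicate 2, so each of these arrays weighs on the counts below. The arrays of the groups did not overlap in 63.8% of all genes, so separation alone is the common case. Several acute stress genes were near the control level again, while small heat shock proteins and the mitochondrial chaperonins were not. In the lists of Sertoli cell, junction, lysosome and detoxification genes, between 11 and 14 members were higher and 0 lower, though most members of each did not pass. In those of pachytene spermatocytes and the sperm axoneme 10 and 15 members were lower, and a pair of enzymes of testosterone synthesis fell. The lists and their members were chosen with earlier results of these data known, so their counts are a description and not a test. The counts shrank when single arrays were left out, as given beside each list. With only the 4 arrays fitted, 5 Sertoli cell, 5 junction, 6 lysosome and 9 detoxification genes were higher. In that fit 3 pachytene spermatocyte and 2 axoneme genes were lower.

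**Figure D1:**
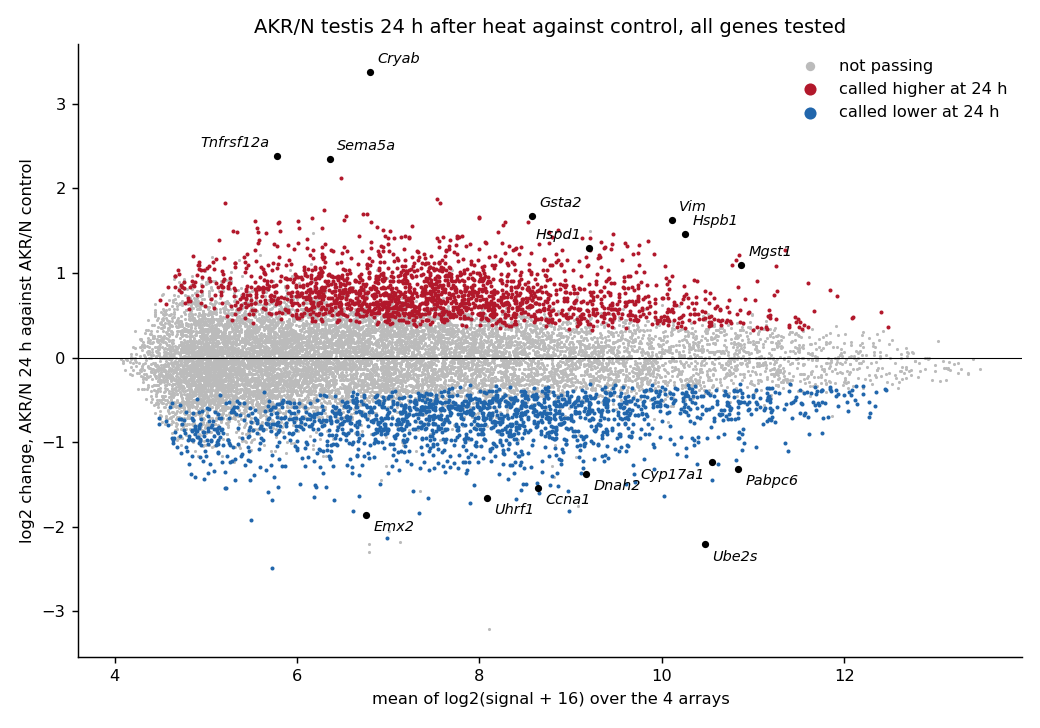
Each point is 1 of the 15762 genes, with the mean of log2(signal + 16) over the AKR/N control and 24 h arrays on the horizontal axis and the log2 change on the vertical axis. Red points were called higher (1932), blue points lower (1754) and grey points did not pass; black points are named genes, with Cryab at 3.38 and Ube2s at −2.21.

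The largest rise was that of Cryab. Cryab, the small heat shock protein alpha B-crystallin, had signals of 11.1 and 28.3 in the controls and 282 and 419 at 24 h, a log2 change of 3.38 (SE 0.23, adjusted p = 1.88e-05). Both 24 h arrays were far above both controls, and another probe set of Cryab rose by 2.65, while one more changed by 0.32. Tnfrsf12a, the receptor for the cytokine TWEAK, read 9.64 and 6.52 in the controls and 72.8 and 162 at 24 h (log2 change 2.39, SE 0.36, adjusted p = 9.26e-04). Its control signals were near the floor of the array, and the 24 h arrays differed from each other by more than those of Cryab.

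Sema5a, a semaphorin of cell guidance, read 15.2 and 26.3 in the controls and 135 and 210 at 24 h, a change of 2.35 (SE 0.25, adjusted p = 1.61e-04). Scara3, a scavenger receptor, read 34.7 and 20.4 against 128 and 224, a change of 2.12 (SE 0.26, adjusted p = 3.05e-04). At 12 h Sema5a had read 34.9 and 57.8 and Scara3 36.03 and 37.6, and both rose from there to 24 h (adjusted p = 0.00239 and 0.00158). The others of the 15 largest rises whose groups did not overlap were Efhd2 (1.88), Abat (1.83), Hebp1 (1.83), A530020G20Rik (1.74), Nbeal1 (1.70), Serpinb1a (1.70), Gsta2 (1.68), Ttc7b (1.67), S100a10 (1.66), Hprt (1.65) and Ccnb3 (1.65), all in log2 units. Hprt, the purine salvage enzyme that is often taken as a reference gene, read 134 and 122 in the controls and 358 and 528 at 24 h. Single probe sets carry several of these values: other probe sets changed by 0.23 for Efhd2, −0.35 for Abat and −0.06 for Ttc7b. S100a10 lost its call without 24 h replicate 2, without control replicate 1 or with the covariate, and A530020G20Rik lost it with a pseudocount of 1.

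Among the largest falls, Ube2s, which extends ubiquitin chains for the anaphase-promoting complex, had signals of 2878 and 3212 in the controls and 672 and 618 at 24 h (log2 change −2.21, SE 0.16, adjusted p = 2.06e-05). The fall had begun earlier, since the 12 h arrays read 1059 and 1205. Another probe set of Ube2s changed by 0.10. Uhrf1, which guides maintenance DNA methylation, read 515 and 422 in the controls and 166 and 112 at 24 h (change −1.66, SE 0.18, adjusted p = 1.71e-04). Emx2, a homeobox factor of the urogenital ridge, read 236 and 153 against 51.7 and 31.5 (change −1.86, SE 0.21, adjusted p = 2.01e-04). In each of these genes both 24 h arrays lay below both controls.

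The others of the 15 largest falls with separate groups were 4930478P22Rik (−2.49), Vapb (−2.14), Ss18l1 (−1.92), Sptbn4 (−1.84), Rhbdd3 (−1.82), Grik5 (−1.82), Fbf1 (−1.72), Tmem130 (−1.69), Capn11 (−1.68), Zbtb42 (−1.67), Kcnj9 (−1.66) and Rnf112 (−1.65). Fbf1, a protein of the centriole's transition fibres, read 438 and 396 in the controls, 192 and 188 at 12 h and 144 and 92.3 at 24 h. Ss18l1 lost its call without any of the 4 arrays, and Capn11 without 24 h replicate 2 or control replicate 1. Other probe sets did not follow for Vapb (0.31 and 0.47), Kcnj9 (−0.05 and 0.17) or, in full, for Uhrf1 (−0.60) and Rnf112 (−0.65).

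Of 24 tested heat shock chaperones, 5 were higher, 0 lower and 19 did not pass, with a median change of −0.03. The 5 were Cryab, Hspb1, Hspd1, Hspe1 and Chordc1. Hspb1, a small heat shock protein that binds unfolding proteins and actin, read 739 and 705 in the controls and 1800 and 2237 at 24 h (log2 change 1.46, SE 0.15, adjusted p = 1.45e-04). Hspd1, the mitochondrial chaperonin, read 347 and 371 against 812 and 1008 (change 1.30, SE 0.17, adjusted p = 4.11e-04). Hspe1, its co-chaperonin, read 556 and 550 against 1290 and 1673 (change 1.38, SE 0.19, adjusted p = 4.86e-04). Both 24 h arrays exceeded both controls in all of these genes, and a second probe set of Hspe1 changed by 0.49. Chordc1, a co-chaperone, read 107 and 98 against 204 and 234 (change 0.99, SE 0.20, adjusted p = 0.00419), and its adjusted p was 0.0522 without 24 h replicate 2.

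The upstream sequences of chaperone genes are where heat shock factors bind, at inverted repeats of the pentamer nGAAn. The RefSeq promoter table (build GRCm38.p6) held 4 of the 5 called chaperones. The 250 bases before the start are shown for the chaperonin pair's Hspe1 side, for Hspb1, for Chordc1 and for Hspa1b, an inducible gene that was not called at 24 h. Capitals mark each match to GAANNTTC or TTCNNGAA, which were searched on both strands since each is its own reverse complement; overlapping matches run together.
Hspe1, chr1:55087898-55088147, plus strand: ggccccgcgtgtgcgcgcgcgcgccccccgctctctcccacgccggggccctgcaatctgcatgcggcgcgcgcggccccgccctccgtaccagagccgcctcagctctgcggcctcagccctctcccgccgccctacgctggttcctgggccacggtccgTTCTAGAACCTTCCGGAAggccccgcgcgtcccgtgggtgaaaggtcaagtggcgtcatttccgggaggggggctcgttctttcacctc
Hspb1, chr5:135887669-135887918, plus strand: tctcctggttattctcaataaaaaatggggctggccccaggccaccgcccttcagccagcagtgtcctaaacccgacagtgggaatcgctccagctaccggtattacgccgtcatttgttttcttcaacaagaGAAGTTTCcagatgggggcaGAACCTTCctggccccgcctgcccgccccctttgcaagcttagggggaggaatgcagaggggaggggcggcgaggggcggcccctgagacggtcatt
Chordc1, chr9:18292017-18292266, plus strand: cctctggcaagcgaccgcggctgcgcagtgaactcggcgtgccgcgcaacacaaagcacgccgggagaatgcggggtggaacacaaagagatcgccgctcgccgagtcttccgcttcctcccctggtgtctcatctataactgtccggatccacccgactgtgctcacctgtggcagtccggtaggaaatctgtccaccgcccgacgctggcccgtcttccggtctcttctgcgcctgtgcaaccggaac
Hspa1b, chr17:34959239-34959488, minus strand: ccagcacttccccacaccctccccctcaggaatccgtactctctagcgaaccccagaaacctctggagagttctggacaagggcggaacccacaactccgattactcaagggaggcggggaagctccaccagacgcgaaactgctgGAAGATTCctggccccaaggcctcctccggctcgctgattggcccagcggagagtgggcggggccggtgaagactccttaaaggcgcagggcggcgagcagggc

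The Hspe1 window held 3 overlapping matches, with first bases 89, 84 and 79 bases before the start, so that 4 inverted units ran on without a gap. The Hspb1 window held 2 matches, at 117 and 97 bases. The Hspa1b window held 1, at 104 bases, and the Chordc1 window held 0. Hspd1 is transcribed away from Hspe1, and 1 of its 2 listed windows covers the same 3 matches. Of 32851 promoter windows of this length in the table, 12.8% held at least 1 match, 1.46% at least 2, and 0.466% a run of at least 3 alternating units spaced as in the motif. A match is a description of letters and says nothing here on binding.

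The genes best known for the acute response were not among the 5. Hspa1b, the inducible cytosolic chaperone of the HSP70 family, read 5516 and 5515 at 8 h, 2874 and 1597 at 12 h, and 78.3 and 116 at 24 h. Its AKR/N controls disagreed, at 64.7 in replicate 1 and 493 in replicate 2, and Hspa1a showed the same split, with 85.2 and 383 in the controls and 66.7 and 107 at 24 h. The control replicate 2 array therefore carried raised inducible HSP70 signal, and the change of Hspa1b at 24 h was −0.86 (SE 0.66, adjusted p = 0.372) with it and 0.47 without it. Hspa8, the constitutive family member, read 1612 and 1615 in the controls, 5288 and 5189 at 12 h, and 1753 and 1889 at 24 h (change against control 0.17, SE 0.11, adjusted p = 0.304). Hsph1, a nucleotide exchange factor for these chaperones, read 365 and 324 against 419 and 542 (change 0.45, adjusted p = 0.0742).

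**Figure D2:**
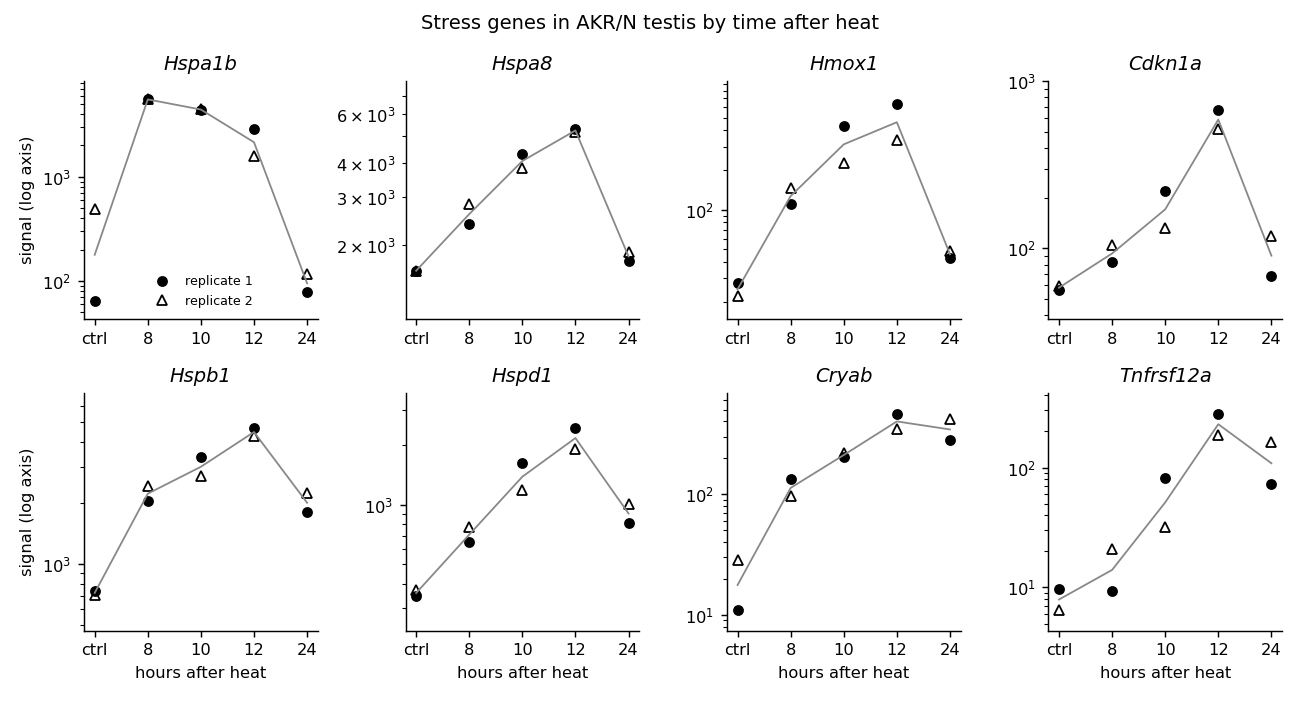
Signals of 8 stress genes on log axes in AKR/N controls (ctrl) and at 8, 10, 12 and 24 h, with filled circles for replicate 1, open triangles for replicate 2 and lines through geometric means. Hspa1b was at 78.3 and 116 at 24 h against split controls of 64.7 and 493, and Hspa8 at 1753 and 1889 against 1612 and 1615, whereas Hspb1, Hspd1, Cryab and Tnfrsf12a were above both of their controls.

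The step from 12 to 24 h was tested directly between the heated groups. The control means do not enter it, but the control arrays share in the pooled spread of the fit. It called 1588 genes (10.1%), of which 975 (6.19%) were higher and 613 (3.89%) lower at 24 h. With only the 4 arrays of these heated groups fitted, 2 genes were called, both higher at 24 h. None of the falls of this step, here or in the next paragraph, was called in that fit. Of the heat shock chaperones, 10 of 24 were lower at 24 h than at 12 h and 0 higher, with a median of −0.44 against −0.03 over all genes. Hspa1b fell by 4.27 on the log2 scale (SE 0.66, adjusted p = 0.00238), Hspa8 by 1.52 (adjusted p = 2.11e-05) and Hspd1 by 1.25 (SE 0.17, adjusted p = 0.00126). The change of Cryab from 12 to 24 h was −0.21 (SE 0.23, adjusted p = 0.602), with 12 h signals of 462 and 347. Hmox1, the heme-degrading antioxidant enzyme, read 633 and 337 at 12 h and 43.1 and 48.9 at 24 h, a change of −2.95 (SE 0.40, adjusted p = 0.00117), beside 27.9 and 22.1 in the controls. Cdkn1a, the p53-induced inhibitor of the cell cycle, read 668 and 521 at 12 h and 68.7 and 119 at 24 h, a change of −2.50 (SE 0.26, adjusted p = 2.32e-04), beside 56.6 and 59.9 in the controls.

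Other early stress genes changed in the same direction. Btg2, an antiproliferative factor, changed by −2.44 (SE 0.38, adjusted p = 0.00246) from 12 to 24 h. Atf3, a stress transcription factor, changed by −2.57 (SE 0.61, adjusted p = 0.0204), a call that was lost without either 24 h array (adjusted p = 0.108 and 0.0725) or without 12 h replicate 1 (adjusted p = 0.173). Of 26 immediate early and AP-1 genes 7 were lower and 0 higher in this step, and of 24 p53 targets 7 were lower and 2 higher. The 12 h arrays had the higher beta-actin ratios, and with that ratio as a covariate the step called 509 genes instead of 1588; without 24 h replicate 2 it called 253, without 12 h replicate 1 362 and without 24 h replicate 1 979.

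Several of the largest rises of this step were in genes whose 12 h arrays lay below both controls. Diaph2, a formin that builds actin filaments, read 223 and 156 in the controls, 75.8 and 75.05 at 12 h and 499 and 484 at 24 h, a rise from 12 h of 2.47 (SE 0.18, adjusted p = 1.98e-05). Pank1, which starts coenzyme A synthesis, read 559 and 343, then 124 and 123, then 733 and 784 (rise 2.47, SE 0.21, adjusted p = 5.55e-05). Dbp, an output factor of the circadian clock, read 186 and 148 in the controls, 81.3 and 63.6 at 12 h and 355 and 383 at 24 h (rise 2.13, SE 0.24, adjusted p = 4.20e-04). Kctd14 (2.42), A530020G20Rik (2.11) and Slco1a4 (2.07), an organic anion transporter, completed the 6 largest, and A530020G20Rik lost its call with a pseudocount of 1.

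Among the other stress programmes at 24 h against control, the split between called and uncalled genes was wide. Of 20 antioxidant genes linked to the factor NRF2, 6 were higher, 2 lower and 12 did not pass (median 0.27). Taldo1, transaldolase of the pentose phosphate pathway, read 116 and 198 in the controls and 352 and 488 at 24 h (log2 change 1.36, SE 0.25, adjusted p = 0.00216). Nqo1, a quinone reductase, read 37.4 and 36.1 against 91.2 and 97 (change 1.06, SE 0.20, adjusted p = 0.00287). Mt2, a metal-binding metallothionein, moved the other way, from 3067 and 2920 to 1938 and 2065 (change −0.58, SE 0.11, adjusted p = 0.00360). In all of these genes the groups did not overlap, and Hmox1 in the same list had a change of 0.60 (adjusted p = 0.301). Without 24 h replicate 2, and with the covariate, 3 members were higher.

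Of 24 tested p53 targets, 5 were higher, 1 lower and 18 did not pass (median 0.17). Ccng1, cyclin G1, read 109 and 126 in the controls, 424 and 332 at 12 h and 274 and 431 at 24 h (log2 change at 24 h 1.43, SE 0.22, a call in every alternative run). The change of Ccng1 from 12 to 24 h was −0.12 (adjusted p = 0.765). Sesn1, a sestrin that restrains growth signalling, rose by 0.98 (SE 0.14, adjusted p = 5.18e-04), with another probe set at −0.55. Rrm2b, a ribonucleotide reductase subunit used for DNA repair, read 39.9 and 37.1 against 92.2 and 96 and rose by 1.01 (SE 0.19, adjusted p = 0.00279). Cdkn1a itself had a change of 0.53 (SE 0.26, adjusted p = 0.157). Higher members numbered 3 without 24 h replicate 2, without control replicate 1 or with the covariate.

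Of 35 genes of the BCL2 family and cell death, 10 were higher, 3 lower and 22 did not pass (median 0.32). The called members include both promoters and inhibitors of death, so the count has no single sense. Aifm1, a mitochondrial flavoprotein that can carry a death signal to the nucleus, read 88.2 and 91.4 in the controls and 218 and 209 at 24 h (log2 change 1.12, SE 0.16, adjusted p = 5.71e-04). Cycs, somatic cytochrome c, read 2811 and 2724 against 4835 and 4807 (change 0.80, SE 0.13, adjusted p = 0.00130). Bcl2l1, which inhibits death, fell from 472 and 412 to 258 and 171 (change −1.02, SE 0.18, adjusted p = 0.00220), and Bad, which promotes it, fell from 368 and 418 to 163 and 211 (change −1.02, SE 0.20, adjusted p = 0.00353). Leaving out 1 array at a time gave 5 to 8 higher members, the fewest without 24 h replicate 2 or without control replicate 2.

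Of 22 genes of the integrated stress response, 6 were higher and 4 lower (median −0.03). The lower members numbered 0 without 24 h replicate 2 and 1 without control replicate 1 or with the covariate. Among the higher members were enzymes of amino acid synthesis. Asns, asparagine synthetase, read 948 and 918 against 1505 and 1522 (log2 change 0.69, SE 0.11, adjusted p = 9.36e-04), and Psat1 of serine synthesis read 179 and 165 against 390 and 332 (SE 0.16 in log2 units, adjusted p = 0.00130). Xbp1, a factor of the unfolded protein response, read 126 and 116 in the controls and 359 and 349 at 24 h (change 1.44, SE 0.18, adjusted p = 3.41e-04), though another probe set changed by −0.01. It was the 1 member of 20 in that list that was higher, beside 1 lower and a median of 0.13. Hspa5, the main chaperone of the endoplasmic reticulum, changed by 0.30 (SE 0.13, adjusted p = 0.122).

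Of 20 hypoxia response genes, 8 were higher and 1 lower (median 0.47). Pgk1, the somatic phosphoglycerate kinase, read 154 and 170 in the controls and 562 and 488 at 24 h (log2 change 1.60, SE 0.15, adjusted p = 1.30e-04). Bnip3, a mitochondrial protein of mitophagy, rose by 0.90 (SE 0.14, adjusted p = 9.26e-04), and Ndrg1 by 0.90 (SE 0.17, adjusted p = 0.00244). Without 24 h replicate 2, 5 hypoxia genes were higher. Among 20 interferon-stimulated genes 4 were higher and 0 lower (median 0.47). They were led by Rtp4, which read 36.5 and 31.4 against 72.1 and 104 (change 1.04, SE 0.17, adjusted p = 0.00114), Ifi35 (change 0.99, SE 0.18, adjusted p = 0.00232) and Gbp3 (change 0.75, SE 0.15, adjusted p = 0.00378). Of 30 cytokines and chemokines 1 was higher and 1 lower, and neither kept its call without 24 h replicate 2.

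Sertoli cell markers gave one of the most one-sided of the lists, which were chosen with earlier results of these data known. Of 25 tested, 12 were higher, 0 lower and 13 did not pass, with a median of 0.37. Vim, vimentin of the intermediate filaments, read 615 and 607 in the controls, 1486 and 1262 at 12 h and 1693 and 2191 at 24 h (log2 change 1.63, SE 0.14, adjusted p = 6.66e-05). Other cells of the testis interstitium also make vimentin. Fabp5, a fatty acid binding protein, read 483 and 476 against 1109 and 1351 (change 1.32, SE 0.16, adjusted p = 3.30e-04). Aqp8, a water channel, read 163 and 189 against 388 and 402 (change 1.10, SE 0.18, adjusted p = 0.00112). Clu, the secreted chaperone clusterin, rose from 4496 and 4415 to 6401 and 6596 (change 0.54, SE 0.10, adjusted p = 0.00218).

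In none of these 4 called genes did a 24 h array overlap a control, as was so in 63.8% of all genes. Wt1, a transcription factor that defines the lineage, had 310 and 185 in the controls and 311 and 279 at 24 h (change 0.28, SE 0.27, adjusted p = 0.494), so not every marker followed. The summed signal of the 25 markers was 20294 and 20556 in the controls and 26912 and 28259 at 24 h. Leaving out 1 array at a time gave 6 to 8 higher members, with 6 without 24 h replicate 2 and 7 without control replicate 2, and the covariate gave 9.

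Of 24 genes of the blood-testis barrier, 11 were higher, 0 lower and 13 did not pass (median 0.53). Cldn11, the claudin of Sertoli tight junctions, read 470 and 415 in the controls and 858 and 787 at 24 h (log2 change 0.87, SE 0.16, adjusted p = 0.00232), and it also stands in the Sertoli list. Cgn, cingulin of the tight junction plaque, read 111 and 115 against 258 and 284 (change 1.15, SE 0.11, adjusted p = 1.29e-04), with 110 and 112 at 12 h. Cgn was thus at its control level until 12 h, while Ctnna1, alpha-catenin, was already at 855 and 823 at 12 h and read 873 and 961 at 24 h against 412 and 442 in the controls (change 1.07, SE 0.16, adjusted p = 7.48e-04). Ctnnb1, beta-catenin, rose by 0.79 (SE 0.13, adjusted p = 0.00155). A second probe set of Cgn changed by 0.43 and one of Ctnna1 by 0.41. Without any 1 of the 4 arrays the count fell: it was 4 without 24 h replicate 2, 5 without control replicate 2 and 7 without either other array, and 4 with the covariate and 6 with median centring.

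Of 30 cytoskeleton genes, 11 were higher and 2 lower (median 0.39). Anxa5, an annexin that binds phosphatidylserine, read 110 and 129 in the controls and 292 and 357 at 24 h (log2 change 1.33, SE 0.18, adjusted p = 4.33e-04). Flna, filamin A, rose by 0.78 (SE 0.13, adjusted p = 0.00157). Tln1 went the other way, with a change of −0.90 (adjusted p = 4.51e-04), a call lost with the mean of all probe sets. Of 17 markers of peritubular myoid cells, the contractile cells around the tubule, 8 were higher and 0 lower (median 0.49). Cald1, caldesmon, read 199.9 and 199.2 against 445 and 594 (change 1.30, SE 0.21, adjusted p = 0.00133), with other probe sets at 0.13 and 0.26, and Myl9, a myosin light chain, read 505 and 570 against 759 and 761 (change 0.49, SE 0.11, adjusted p = 0.00553). Without 24 h replicate 2 the cytoskeleton list had 4 higher members and the myoid list 2, and without control replicate 2 they had 6 and 4. Cd34, a marker of blood vessels and stromal cells, read 88.2 and 75.3 against 176 and 206 (change 1.08, SE 0.14, adjusted p = 3.64e-04). Of 14 endothelial markers 2 were higher, near the 12.3% of all genes.

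Lysosome and phagocytosis genes were higher in 11 of 28 cases and lower in 0 (median 0.39). Ctsz, the protease cathepsin Z, read 61.3 and 52.6 in the controls and 176 and 208 at 24 h (log2 change 1.51, SE 0.18, adjusted p = 3.11e-04), although another of its probe sets changed by 0.12. Abca1, the exporter of cholesterol that cells use after engulfing others, read 487 and 347 in the controls, 306 and 259 at 12 h and 1042 and 1283 at 24 h (change 1.46, SE 0.27, adjusted p = 0.00235). Lamp2, a lysosomal membrane protein, read 287 and 246 against 470 and 487 (change 0.81, SE 0.14, adjusted p = 0.00192). Ctss, cathepsin S of macrophages and other antigen-presenting cells, read 159 and 124 against 252 and 274 (change 0.83, SE 0.15, adjusted p = 0.00239). The count was 6 without 24 h replicate 2 and 7 with the covariate.

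Of 24 macrophage and leukocyte markers 7 were higher and 1 lower (median 0.32), and their summed signal was 5289 and 5105 in the controls and 6078 and 6545 at 24 h. Higher members numbered 1 without 24 h replicate 2, 4 without control replicate 1, and 3 without control replicate 2 or with the covariate. Of 10 neutrophil markers and of 10 T and B cell markers 0 were called, with medians of −0.33 and −0.32.

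Detoxifying enzymes were the longest one-sided list. Of 32 glutathione transferases and alcohol and aldehyde enzymes, 14 were higher, 0 lower and 18 did not pass (median 0.42). Gsta2 read 198 and 196 in the controls, 254 and 219 at 12 h and 562 and 790 at 24 h (log2 change 1.68, SE 0.20, adjusted p = 3.05e-04). Adh1, an alcohol and retinol dehydrogenase, read 181 and 214 in the controls, 252 and 220 at 12 h and 590 and 672 at 24 h (change 1.60, SE 0.22, adjusted p = 5.21e-04). Mgst1, a membrane-bound transferase, read 1170 and 1367 against 2519 and 2910 (change 1.09, SE 0.14, adjusted p = 3.73e-04). These 3 genes had most of their rise after 12 h: from 12 to 24 h Gsta2 rose by 1.44, Adh1 by 1.36 and Mgst1 by 0.74 (adjusted p = 0.00165, 0.00318 and 0.00680). Gsta4 (0.92) and Gsto1 (1.26) rose against control as well. Leaving out 1 array gave 6 to 12 higher members, with 6 without 24 h replicate 2 and 9 without control replicate 1 or with the covariate.

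Of 19 cholesterol synthesis genes 7 were higher and 1 lower (median 0.18). Msmo1, a sterol demethylating oxidase, read 96.9 and 125 in the controls and 280 and 354 at 24 h (log2 change 1.39, SE 0.19, adjusted p = 4.63e-04). Cyp51, which acts earlier in the pathway, rose from 343 and 403 to 620 and 748 (change 0.85, SE 0.14, adjusted p = 0.00157). Other probe sets gave 0.65 for Msmo1 and 0.23 for Cyp51. Without 24 h replicate 2 or without control replicate 1, 3 members of this list were higher.

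**Figure D3:**
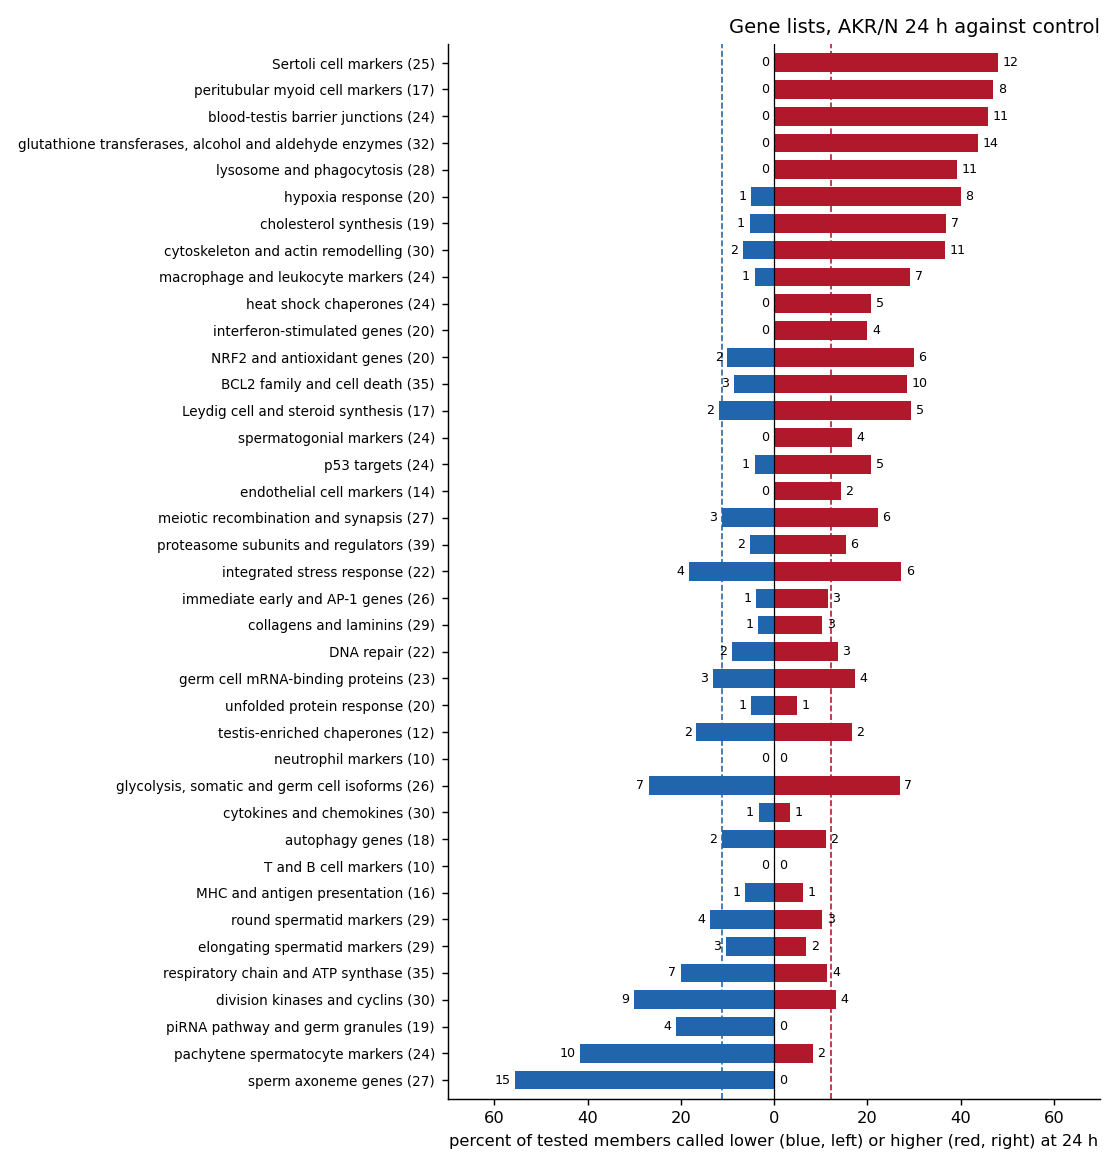
Bars give the percent of tested members of each list that were called higher (red, right) or lower (blue, left) in AKR/N testis at 24 h against control, with the number called beside each bar and the number tested in brackets; lists with under 10 tested members are left out. Dashed lines mark the percent over all genes (12.3 higher, 11.1 lower). Sertoli cell markers (12 of 25 higher) and sperm axoneme genes (15 of 27 lower) stand at the ends. The lists were chosen with earlier results of these data known, so the distance from the dashed lines is no test.

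Of 24 pachytene spermatocyte markers, 10 were lower, 2 higher and 12 did not pass, with a median of −0.50. Ccna1, the cyclin needed for the meiotic divisions of spermatocytes, read 660 and 670 in the controls, 536 and 524 at 12 h and 313 and 151 at 24 h (log2 change −1.54, SE 0.26, adjusted p = 0.00141). Aurkc, the germ cell Aurora kinase, read 485 and 409 against 286 and 208 (change −0.83, SE 0.15, adjusted p = 0.00189). Ybx2, which stores germ cell mRNA, read 4457 and 4420 against 2864 and 2554 (change −0.71, SE 0.12, adjusted p = 0.00142). Hspa2, the spermatocyte chaperone of the HSP70 family, read 2563 and 2478 against 1503 and 1310 (change −0.84, SE 0.18, adjusted p = 0.00494), with an adjusted p of 0.0616 without 24 h replicate 2.

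All 4 called genes had both 24 h arrays below both controls, while the groups did not overlap in 63.8% of all genes. Taf7l, a germ cell transcription factor subunit in the same list, rose from 196 and 227 to 471 and 473 (change 1.11, SE 0.11, adjusted p = 1.52e-04). The summed signal of the 24 markers was 58749 and 60489 in the controls and 50406 and 48980 at 24 h. Leaving out 1 array gave 4 to 8 lower members, the fewest without 24 h replicate 2.

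Genes of the sperm axoneme, the motile core of the flagellum, were lower in 15 of 27 cases and higher in 0 (median −0.48). Dnah2, a dynein heavy chain, read 939 and 890 in the controls, 337 and 476 at 12 h and 374 and 311 at 24 h (log2 change −1.38, SE 0.21, adjusted p = 8.07e-04). Its level at 24 h was close to that at 12 h (change −0.22, adjusted p = 0.528). Ccdc40, needed to place the inner dynein arms, read 362 and 443 against 220 and 155 (change −1.05, SE 0.18, adjusted p = 0.00158), and Spag6l of the central pair read 1554 and 1691 against 1056 and 870 (change −0.75, SE 0.14, adjusted p = 0.00221). This count depended on single arrays: it was 3 without 24 h replicate 2, 6 without control replicate 2, and 13 without either of the others. With median centring of the arrays it was 9, and with the beta-actin covariate 13.

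Of 29 round spermatid markers 3 were higher and 4 lower (median 0.04), and of 29 elongating spermatid markers 2 were higher and 3 lower (median −0.01). The shares over all genes were 12.3% higher and 11.1% lower. With 1 array left out the round spermatid list had 0 to 4 higher and 1 to 4 lower members, and the elongating list 0 to 4 higher and 0 to 1 lower, with 0 higher in both without 24 h replicate 2 or control replicate 1. Rfx2, a transcription factor of spermatid development, read 652 and 612 in the controls, 484 and 466 at 12 h and 266 and 282 at 24 h (log2 change −1.16, SE 0.17, adjusted p = 7.71e-04), with another probe set at −0.15. Both 24 h arrays lay below both controls. The summed signal of round spermatid markers overlapped, at 51025 and 56656 in the controls and 55506 and 55652 at 24 h.

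Of 24 spermatogonial markers 4 were higher and 0 lower (median 0.18). Taf4b, a transcription factor subunit of early germ cells, read 171 and 179 in the controls and 319 and 387 at 24 h (log2 change 0.94, SE 0.18, adjusted p = 0.00300), while another probe set changed by 0.30. Without 24 h replicate 2 or without control replicate 2, 1 marker was higher. Of 27 genes of meiotic recombination and synapsis 6 were higher and 3 lower (median −0.01). Stra8, the retinoic acid target that opens meiosis, read 136 and 127 against 210 and 280 (change 0.81, SE 0.14, adjusted p = 0.00185), and Tex11, an X-linked crossover gene, rose by 0.87 (SE 0.15, adjusted p = 0.00185). Higher members numbered 2 without 24 h replicate 2, without control replicate 1 or with the covariate, and 3 without 24 h replicate 1. Sycp3, of the synaptonemal complex, had 2106 and 2351 against 2174 and 2231 (change −0.01, SE 0.17, adjusted p = 0.963).

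Of 19 piRNA pathway and germ granule genes 4 were lower and 0 higher (median −0.08). With median centring, and with only the 4 arrays fitted, 1 was lower, and the count also fell without any 1 of the 4 arrays. Pld6, the mitochondrial nuclease of piRNA biogenesis, read 435 and 339 in the controls, 188 and 210 at 12 h and 195 and 213 at 24 h (log2 change −0.87, SE 0.16, adjusted p = 0.00233). Piwil1, the PIWI protein of pachytene spermatocytes, read 1208 and 1158 against 777 and 861 (change −0.52, SE 0.17, adjusted p = 0.0394), a call that was lost without any 1 of the 4 arrays. Among 23 germ cell mRNA-binding proteins 4 were higher and 3 lower (median 0.09). Pabpc6, a germ cell poly(A)-binding protein, read 2997 and 2741 against 1396 and 928 (change −1.32, SE 0.18, adjusted p = 5.20e-04). Celf1, a regulator of splicing and mRNA decay, rose from 460 and 458 to 860 and 1067 (change 1.04, SE 0.16, adjusted p = 0.00110), with other probe sets at 0.21 and −0.07.

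Of 30 division kinases and cyclins 9 were lower, 4 higher and 17 did not pass (median −0.21). Plk1, the polo-like kinase of division, read 378 and 458 against 218 and 143 (log2 change −1.16, SE 0.23, adjusted p = 0.00357), and its adjusted p was 0.0594 without 24 h replicate 2. Ccnd2, cyclin D2, read 108 and 96.6 in the controls, 257 and 225 at 12 h and 274 and 334 at 24 h (change 1.43, SE 0.13, adjusted p = 1.29e-04). Ccne2, cyclin E2, read 107 and 134 in the controls, 97.7 and 106 at 12 h and 240.4 and 280.2 at 24 h (change 1.02, SE 0.17, adjusted p = 0.00160), and Ccnb3, a B-type cyclin of early meiosis, read 22.6 and 26.3 against 105 and 116. The count of lower members was 3 without 24 h replicate 2 and 5 without control replicate 1.

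Of 26 glycolysis genes 7 were higher and 7 lower (median 0.09), with the somatic Pgk1 among the higher and Slc2a3, a glucose transporter abundant in germ cells, among the lower, at 6548 and 6038 in the controls and 4117 and 3621 at 24 h (log2 change −0.70, SE 0.11, adjusted p = 0.00130). Pfkp, a phosphofructokinase, read 1115 and 1014 against 574 and 440.1 (change −1.06, SE 0.14, adjusted p = 4.18e-04). Of 35 genes of the respiratory chain 4 were higher and 7 lower (median −0.11), and the lower ones included the testis forms Cox8c, from 3714 and 3661 to 1936 and 1706 (change −1.01, SE 0.13, adjusted p = 3.42e-04), and Cox6b2 (change −0.63, SE 0.11, adjusted p = 0.00176). Of 39 proteasome genes 6 were higher and 2 lower (median 0.23), beside 12.3% higher and 11.1% lower over all genes. Psma7, a core subunit, read 266 and 327 against 653 and 705 (change 1.16, SE 0.12, adjusted p = 1.45e-04), whereas Psmb5, which cuts after hydrophobic residues, fell by 0.55 (SE 0.10, adjusted p = 0.00287). Without 24 h replicate 2 the proteasome list had 1 higher member and glycolysis 1 higher and 2 lower; with the covariate the numbers were 1, 3 and 2. The respiratory chain list had 3 lower members without 24 h replicate 2, 4 without 24 h replicate 1 or control replicate 1, and 2 higher without either 24 h array.

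Leydig cell genes did not move as a block. Of 17 tested, 5 were higher, 2 lower and 10 did not pass (median 0.23), and their summed signal was 10307 and 10545 in the controls and 10975 and 10962 at 24 h. The lower pair were enzymes on the path to testosterone. Cyp17a1, the hydroxylase and lyase that makes androgen precursors, read 2229 and 2353 in the controls, 2040 and 1818 at 12 h and 1082 and 847 at 24 h (log2 change −1.24, SE 0.19, adjusted p = 9.36e-04). Hsd17b3, which makes testosterone itself, read 451 and 509 in the controls, 425 and 375 at 12 h and 221 and 199 at 24 h (change −1.13, SE 0.14, adjusted p = 3.05e-04). For both, both 24 h arrays were below every other AKR/N array named here, and the step from 12 h passed the test (adjusted p = 0.00719 and 0.00255). Cyp11a1, the first enzyme of the pathway, had 438 and 483 against 527 and 558 (change 0.23, SE 0.15, adjusted p = 0.295). Without control replicate 1, and with the covariate, 1 Leydig cell gene was higher, and 2 without either 24 h array. Nr0b1, a nuclear receptor that represses steroid synthesis, rose from 118 and 112 to 208 and 243 (change 0.88, SE 0.15, adjusted p = 0.00154).

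**Figure D4:**
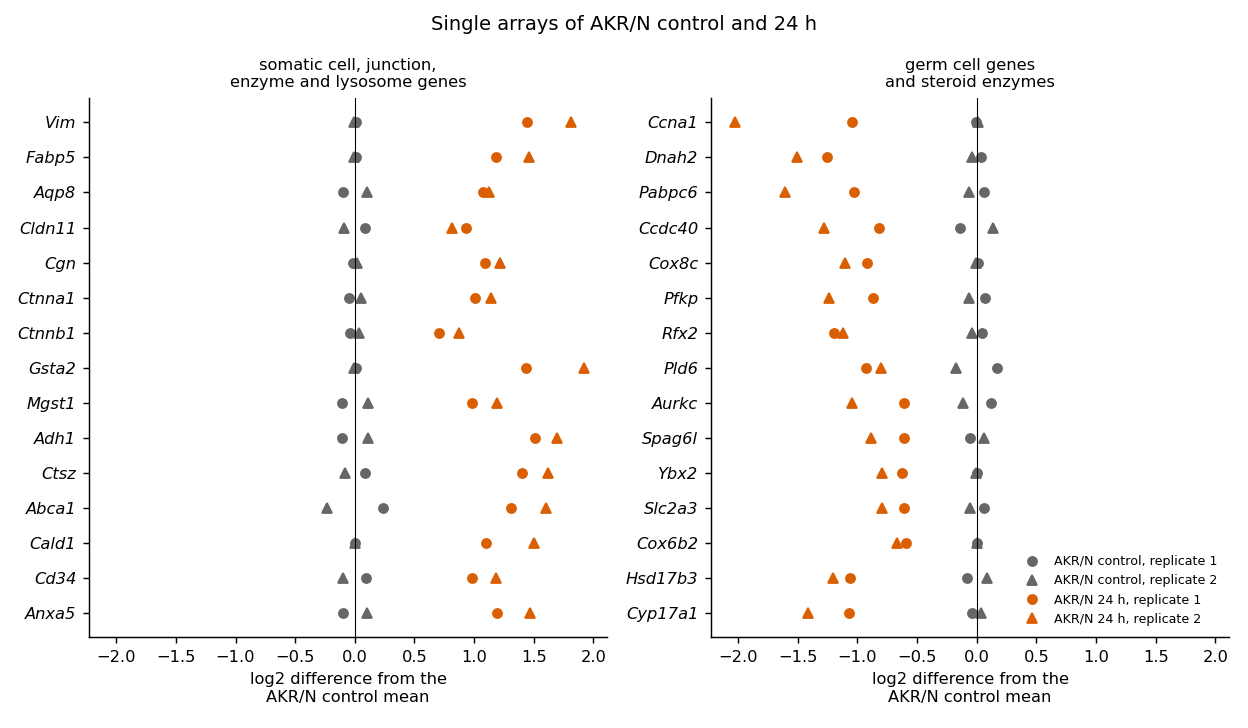
Each symbol is 1 array, plotted as its log2(signal + 16) minus the mean of the AKR/N controls, with grey for controls, orange for 24 h, circles for replicate 1 and triangles for replicate 2. The 30 genes were picked among those called on these arrays, so their separation is no added support. The groups did not overlap in 63.8% of all genes. Both 24 h arrays lie to the right of both controls on the left panel and to the left on the right panel. In most of the lower genes replicate 2 lies farther out, as for Ccna1 (313 and 151 at 24 h).

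Klf2, a transcription factor of resting cells, was the 1 lower gene among 26 immediate early and AP-1 genes, of which 3 were higher (median −0.04). It read 263 and 320 in the controls, 224 and 210 at 12 h and 112 and 118 at 24 h (log2 change −1.22, SE 0.15, adjusted p = 3.41e-04). Of 29 collagens and laminins 3 were higher and 1 lower (median 0.21), and Col4a2, of the basement membrane, rose from 114 and 99.9 to 173 and 237 (change 0.83, SE 0.14, adjusted p = 0.00175). DNA repair genes (3 higher and 2 lower of 22, median −0.06), autophagy genes (2 and 2 of 18, median 0.03), antigen presentation genes (1 and 1 of 16, median 0.03) and testis-enriched chaperones (2 and 2 of 12, median 0.03) had counts near the background. Over all genes 12.3% were higher and 11.1% lower. The higher members of the proteasome, collagen, respiratory chain, round spermatid, spermatogonial and germ cell mRNA-binding lists were also near that share. So were those of the endothelial and immediate early lists. The lower members of the NRF2, meiotic recombination, round spermatid, elongating spermatid and germ cell mRNA-binding lists were near the share of lower genes. Cirbp, the cold-inducible RNA-binding protein, had 406 and 322 against 283 and 267 (change −0.38, SE 0.15, adjusted p = 0.0791).

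In C57BL/6, 5989 genes (38.0%) differed from that strain's own controls at 24 h, and the strains were compared by a test of the difference itself. The contrast of the heat effect at 24 h, AKR/N minus C57BL/6, called 277 genes (1.76%), with 148 (0.939%) more positive and 129 (0.818%) more negative in AKR/N. With median centring of the arrays 68.8% of the called genes were more positive, against 53.4% here. Star, which carries cholesterol into the mitochondria for steroid synthesis, read 304 and 301 in AKR/N controls and 174 and 269 at 24 h, and 87.03 and 75.7 in C57BL/6 controls and 751 and 645 at 24 h. The difference of the heat effects was −3.33 (SE 0.31, adjusted p = 3.50e-04), and in AKR/N the change itself did not pass (−0.45, SE 0.22, adjusted p = 0.147). Star had been high in AKR/N at 12 h, at 988 and 932, and fell by 2.07 from there to 24 h (SE 0.22, adjusted p = 2.37e-04).

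Cd24a, a surface glycoprotein of immature cells, read 143 and 131 in AKR/N controls and 124 and 155 at 24 h, and 80 and 90.6 in C57BL/6 controls and 761 and 669 at 24 h. The difference was −2.83 (SE 0.21, adjusted p = 5.53e-05). Star and Cd24a were the genes, 2 in number, that were called for this difference also when only the 8 arrays of these groups were fitted, and again when 24 h replicate 1 of AKR/N was left out or the beta-actin covariate was used. Their other probe sets gave differences of −1.88 and −1.42 for Star and of −0.84 and −1.97 for Cd24a. Phlda1 (−2.04, SE 0.28, adjusted p = 0.00917), Ier3 (−2.17, SE 0.35, adjusted p = 0.0189) and Cdkn1a (−1.99, SE 0.36, adjusted p = 0.0223) followed, all risen in C57BL/6 at 24 h and without a passing change in AKR/N. These 3 calls were lost without 24 h replicate 1 of AKR/N and with the covariate. Of 18 alternatives other than the fit of 8 arrays, Phlda1 lost its call in 2, Ier3 in 6 and Cdkn1a in 9. For Cdkn1a these included the mean of all probe sets.

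Among the most positive differences were genes that were lower in C57BL/6 at 24 h. Dennd5b read 218 and 211 in AKR/N controls and 208 and 266 at 24 h, but 255 and 215 in C57BL/6 controls and 54.7 and 57.7 at 24 h (difference 1.92, SE 0.32, adjusted p = 0.0190), and its other probe sets gave differences of 0.40, 0.70 and 0.71. Gramd1c (1.72), Aym1 (1.78) and 1700006A11Rik (1.74) were also lower in C57BL/6, with C57BL/6 changes of −2.25, −2.29 and −1.90 and AKR/N changes of −0.53, −0.51 and −0.15. Hebp1, a heme-binding protein, read 4.35 and 2.89 in AKR/N controls and 48.2 and 59.3 at 24 h, against 28.9 and 39.9 and then 29.8 and 18.4 in C57BL/6 (difference 2.16, SE 0.37, adjusted p = 0.0199). Its AKR/N controls lay far below the filter's signal of 17.5, so the size depends on the pseudocount: the difference was 4.09 with a pseudocount of 1 and 0.96 with 64, and the AKR/N change 3.58 and 0.80. Dapp1 (1.88) read 2.97 and 11.07 in AKR/N controls and 334 and 306 in C57BL/6 controls, so its AKR/N change started from the floor. Arhgef1 differed by −1.84 (SE 0.31, adjusted p = 0.0190), with a fall of 1.10 in AKR/N and a rise of 0.74 in C57BL/6. None of these 7 calls held when AKR/N 24 h replicate 1 was left out.

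**Figure D5:**
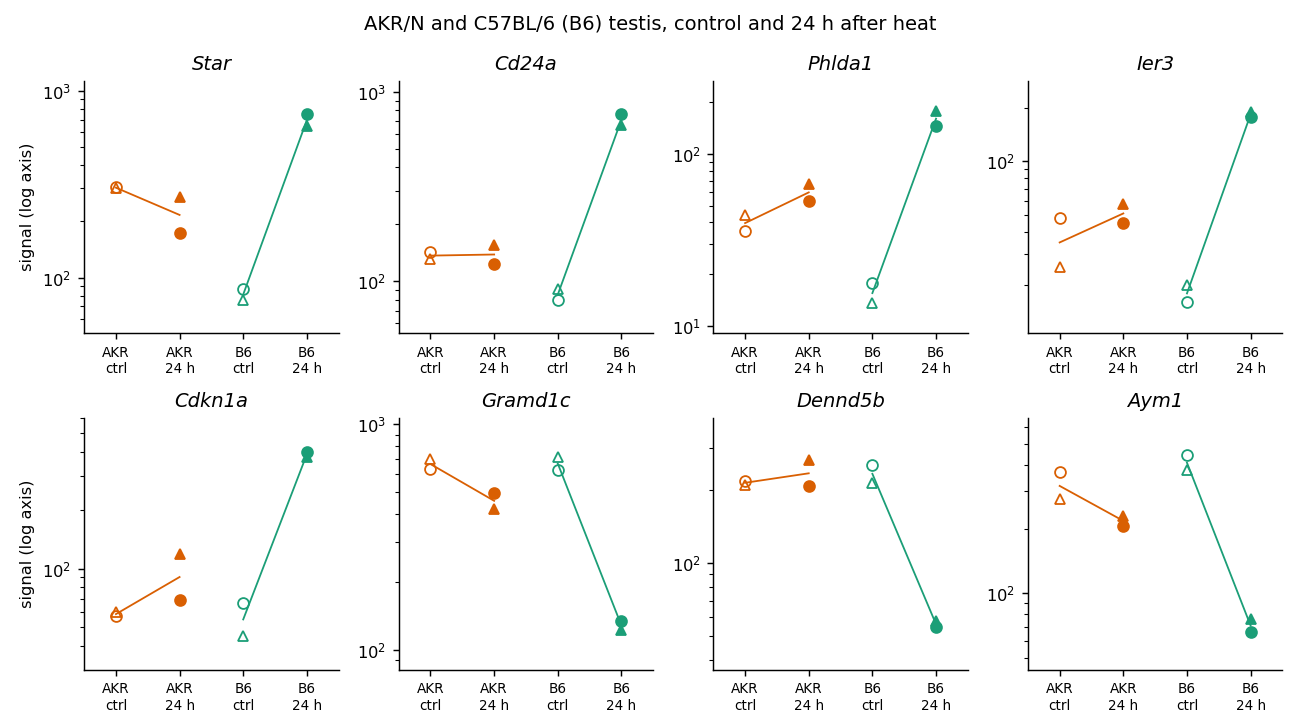
Signals on log axes of 8 genes with called strain differences, in AKR/N (orange) and C57BL/6 (B6, green) controls (open symbols) and 24 h arrays (filled), with circles for replicate 1, triangles for replicate 2 and lines between geometric means. Star and Cd24a rose in C57BL/6 (log2 changes 2.87 and 2.85) and not in AKR/N (−0.45 and 0.02), and Gramd1c, Dennd5b and Aym1 were lower at 24 h in C57BL/6.

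Beside the lists above, the C57BL/6 counts at 24 h are given for 4 stress programmes and for some of the other lists. Of all genes 3366 (21.4%) were higher in C57BL/6 and 1932 (12.3%) in AKR/N. Of the heat shock chaperones 11 of 24 were higher in C57BL/6 against 5 in AKR/N, of the p53 targets 13 against 5 of 24, of the immediate early genes 11 against 3 of 26, and of the interferon-stimulated genes 14 against 4 of 20. Other lists were closer: higher were 13 against 12 Sertoli cell, 14 against 11 junction, 8 against 8 myoid and 17 against 14 detoxification genes. Lower were 20 against 15 axoneme and 13 against 10 pachytene spermatocyte genes. The gap was wider for lysosome (20 against 11 higher) and cytoskeleton genes (19 against 11). By the test of the difference itself, 3 of 24 chaperones, 3 of 24 p53 targets, 1 of 26 immediate early genes and 0 of 20 interferon-stimulated genes were called, all with a more negative effect in AKR/N. Genes of the chaperone list such as Hspa1b, with 591 and 286 in C57BL/6 at 24 h and 58.1 and 39.1 in its controls, did not pass (difference −3.60, SE 0.93, adjusted p = 0.0633), and the AKR/N control replicate 2 described above enters that value.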

How the data were processed

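Total RNA of whole testes was measured on 20 arrays, with 2 per group of strain and time. The authors deposited 1 intensity per probe set. The values show that every array has a mean of 125.001 without its top and bottom 2%; the summary method and software were not given in the sources used here. Probe sets with 1 annotated gene were kept (34945 of 45037 that are no controls), and the brightest per gene was used. Genes whose highest group mean reached the 40th percentile (signal 17.5) were tested, which left 15762. With limma 3.58.1 in R 4.3.3, log2(signal + 16) of all 20 arrays was modelled by a mean for each group, with Benjamini-Hochberg adjustment over all genes, and was tested on simulated data. Every adjusted p in the text is such a limma value. An exact permutation of 2 against 2 arrays cannot reach 0.05. Plots used matplotlib 3.10.9 in Python 3.11.15.

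Named genes are the 15 largest called changes per direction whose groups do not overlap, and the 6 largest per direction of the other comparisons. From each list, some of the 6 members with the smallest adjusted p are named, beside some that did not pass. They were not taken in strict order of rank. Txn1 and Xiap, for instance, are not described although genes ranked below them are. Both lost their call with the mean of all probe sets. In the Leydig cell list Gata4, Akr1cl and Scp2, whose calls were lost in 5, 5 and 4 alternatives, are not described either. The members described can thus overstate how stable the calls of their lists were. The gene lists and members were chosen with earlier results of these data known. Alternatives covered normalization, pseudocount, filter, probe sets, samples fitted, replicate number, and each array left out. Replicate numbers were not taken as pairs in the main fit (r between AKR/N control and 24 h deviations −0.01). Over all 45 pairs of groups that r ran from −0.28 to 0.30, with a median of −0.01 and 4 pairs over 0.1.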

Additional observations from a re-analysis of the deposited data

Results flagged for a closer look

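The difference of the 24 h heat effect between the strains, AKR/N minus C57BL/6, marked 277 genes, and each gene named for it is listed here because that difference passed its own test. More positive in AKR/N were Hebp1 (2.16), Dennd5b (1.92), Dapp1 (1.88), Aym1 (1.78), 1700006A11Rik (1.74) and Gramd1c (1.72). More negative were Star (−3.33), Cd24a (−2.83), Ier3 (−2.17), Phlda1 (−2.04), Cdkn1a (−1.99) and Arhgef1 (−1.84). Groups of 2 arrays are too small for a test of single outlying arrays, so none was made.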

How the results depend on the processing

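The count of genes called at 24 h against control (3686) was 1348 when only the 4 arrays were fitted, 1955 with the beta-actin ratio as a covariate, an alternative chosen after seeing the data, and 1073 (without 24 h replicate 2) to 2737 with 1 array left out; the causes were not tested. In the other alternatives run it stayed between 2840 and 4164. The count for 24 h against 12 h (1588) was 2 with only those 4 arrays, 891 with only the AKR/N arrays, 509 with the covariate, and 253 to 1215 with 1 array left out. The count for the strain difference (277) was 96 with median centring, 178 and 735 with pseudocounts of 1 and 64, 155 without the filter, 655 with a filter at the 60th percentile, 821 with an intensity trend, 2 with only the 8 arrays, 2 with the covariate, and 2 to 122 with 1 array left out. With the replicate number as a block the 3 counts were 3466, 1340 and 157. The rule for named genes picked 205 genes called at 24 h against control, some of which are not described in the text. Of these 205, 112 were also called in the fit of 4 arrays, and 100 were called in every alternative run other than that fit. Changes against control that took the other sign were those of Cd24a (−0.07 with quantile normalization, and from −0.13 to 0.17 with 1 array left out, negative without 24 h replicate 2 and, at −0.04, without control replicate 2), Zfp36l2, which had been called (−0.09), Star (0.25), Hspa8 (−0.18) and Hsph1 (−0.01) with the mean of all probe sets, Atf3 (−0.11 without 24 h replicate 2, to 0.73 without 24 h replicate 1), Btg2 (0.06 without control replicate 1, to −0.76 without control replicate 2, and 0.23 with the covariate) and Hspa1b (0.47 without control replicate 2, to −2.19 without control replicate 1). The causes were not tested. Quantile normalization put 48.3% of the called genes higher instead of 52.4%. With 2 arrays per group the number of arrays limits the precision.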

Other observations

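Genes of the circadian clock were looked at after their values were seen, because Dbp was among the largest rises from 12 to 24 h. At 24 h against control Dbp was higher by 1.08 (adjusted p = 0.00674), with another probe set at 0.35. Nr1d2, a nuclear receptor of the clock, read 256 and 228 in the controls, 242 and 269 at 12 h and 391 and 464 at 24 h (log2 change 0.78, adjusted p = 0.00476). Clock read 107 and 80.4 against 180 and 234 (1.02, adjusted p = 0.0202), and Cry1 271 and 318 against 412 and 442 (0.51, adjusted p = 0.0259). Ciart, a repressor of the clock, was lower, from 115 and 85.1 to 42.4 and 37.6 (−1.04, adjusted p = 0.0467). Per1 (−0.21), Per2 (0.20), Nr1d1 (−0.03) and Arntl (−0.37) did not pass. The hour at which each group was sampled is not in the labels, so no direction can be assigned to heat or to the time of day.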
